A study of Pongo abelii with 8 samples.

Results

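The DNA replication genes are 41 genes whose products license origins, unwind DNA, copy it and supply its nucleotides. They were chosen by gene symbol, as every probe set whose annotation gave exactly 1 symbol from the list, and all 41 were measured, by 62 probe sets of the 22277 on the array. The array holds 11963 genes with a symbol of their own. Each gene was counted on 1 probe set, the one with the highest mean over the 8 arrays.

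Sumatran orangutan iPSCs, which are somatic cells returned to a pluripotent state, were set against the skin fibroblasts they were made from, to assess gene expression markers of pluripotency. There were 6 iPSC arrays, 3 colonies each from KB10973 (a 29 year old male) and KB10460 (a 43 year old female), and 2 fibroblast arrays, 1 from each donor. Both animals were labelled healthy controls, and the fibroblasts were primary cultures from punch biopsies of an upper limb. All colonies carry retroviral vectors for human OCT4, SOX2, KLF4 and c-MYC and were grown on mouse feeder cells or in medium conditioned by them. The sample labels give medium with fetal bovine serum for the fibroblasts and with serum replacement for the iPSCs. The study's methods also give these media, while its design text gives serum replacement for both. By the labels and the methods, medium and cell type cannot be told apart. With 1 fibroblast culture per donor, the age, the sex and the culture of a donor cannot be told apart. The 3 colonies of an animal are not independent samples of orangutans, so p-values do not measure the spread between animals.

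A cell copies its genome once per division. The origin recognition complex and CDC6 load the ring of MCM2 to MCM7 onto DNA, the kinase of CDC7 and DBF4 and the proteins CDC45 and GINS turn that ring into an active helicase, and polymerases held by the PCNA clamp then copy the opened strands. Pluripotent stem cells are known for rapid divisions with a short G1 phase, whereas skin fibroblasts in culture divide more slowly and stop dividing with passage.

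The deposited values are log2 RMA expression values, in which a difference of 1 is a 2-fold difference in signal. The median of an array lay between 3.74 and 3.82, and values close to it are near background and understate a fold. Because the probes were made for human transcripts, levels of different genes were not set against each other. The arrays carried the markers of their labels, with 1 exception. Of 10 listed pluripotency markers, 8 were measured with a symbol of their own, and POU5F1 (OCT4) and TDGF1 were not. Those 8 had medians of 8.86 to 9.39 in the iPSCs, against 3.62 in KB10973 fibroblasts and 3.56 in KB10460 fibroblasts. All 8 were called higher in the iPSCs. Of 11 fibroblast markers, 10 were called lower in the iPSCs, where their medians lay between 4.30 and 4.55, against 11.30 in KB10973 and 10.46 in KB10460 fibroblasts. The exception was THY1, a surface protein of fibroblasts and also of pluripotent cells, which was higher in the iPSCs (log2 fold change 2.79). RNA came from whole cultures, so fewer replicating cells and less RNA per replicating cell cannot be told apart.

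Replication genes were higher in the iPSCs nearly throughout the list. By limma over 6 iPSC and 2 fibroblast arrays, with a gene called when its fold exceeded 1.5 and its adjusted p (Benjamini-Hochberg) was under 0.05, 38 of the 41 were called higher, against 15.2% of the 11963 genes. None was called lower (0 of 41), where 11.5% of all genes were. At an unadjusted p under 0.05 also 0 of the 41 were lower, against 2389 of the 11963 genes. The median log2 fold change of the 41 was 1.25, a 2.38-fold difference, beside 0.00 over all genes. The fitted folds ran from a log2 of -0.04 for RPA1 to 4.37 for PRIM1. Of the called genes, 26 were over 2-fold and 11 over 4-fold higher, against 1161 and 335 of the 11963 genes. In 38 of the 41 every iPSC colony lay above both fibroblast cultures, which held for 23.6% of all genes. The median level of the 41 genes was 6.66, 6.62 and 6.49 in KB10973 colonies 1 to 3 and 6.63, 6.36 and 6.32 in KB10460 colonies 1 to 3, against 5.39 in KB10973 fibroblasts and 4.26 in KB10460 fibroblasts. The 6 colonies thus lay close together and well above both cultures, and the cultures lay apart from each other. Without the KB10460 fibroblasts the count of genes called higher fell to 24 and the median log2 fold change to 0.91. With the colonies of a donor averaged, which leaves 2 samples against 2, 13 were called. The test over 8 arrays pools the spread of the 6 colonies and of the 2 cultures into 1 value. Where the cultures lay far apart, its p-values thus understate the spread between fibroblast cultures. For MCM5 the SD was 0.07 over the colonies and 1.95 over the cultures, and for MCM2 0.13 and 0.04.

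**Figure D1:**
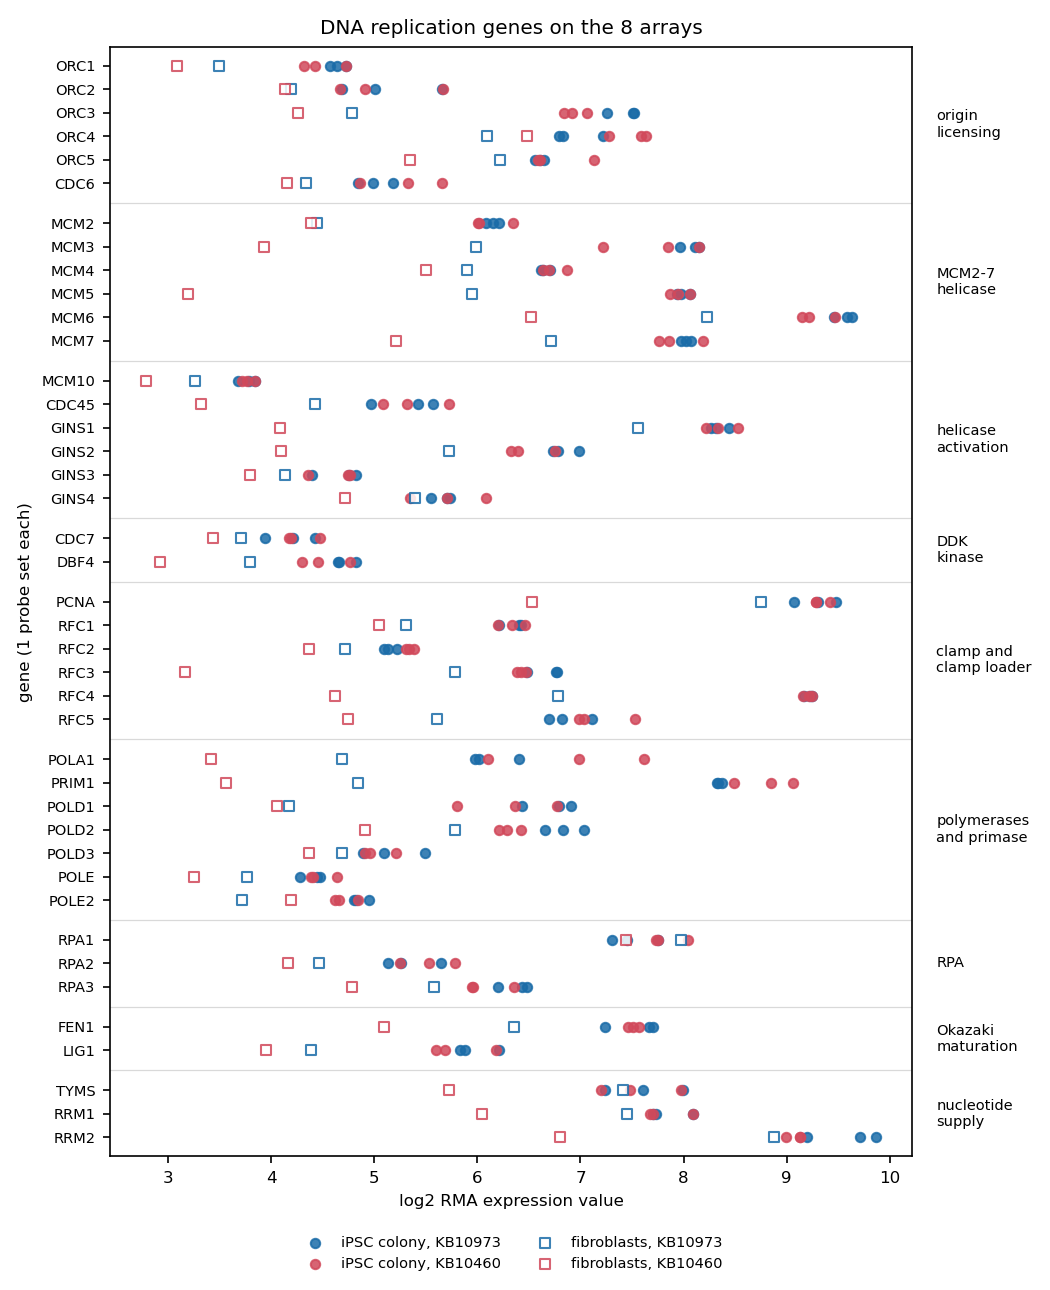
Log2 RMA expression value (horizontal axis) of each of the 41 DNA replication genes, 1 row a gene and grouped by role, with filled circles for the 6 iPSC colonies and open squares for the 2 fibroblast cultures, blue for KB10973 and red for KB10460. In 38 rows every circle lies right of both squares, and in 39 rows the KB10973 square lies right of the KB10460 square.

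All 6 origin licensing genes were called higher, with a median log2 fold change of 0.94. ORC1 to ORC5 encode subunits of the origin recognition complex, which marks the sites where replication can start. ORC3 (probe set 210028_s_at) changed most of the 6 and was at 7.51, 7.52 and 7.26 in KB10973 colonies 1 to 3 and at 7.07, 6.92 and 6.84 in KB10460 colonies 1 to 3, against 4.78 in KB10973 and 4.26 in KB10460 fibroblasts. The lowest colony stood 2.06 above the higher culture, and the fitted difference was 6.33-fold (log2 fold change 2.66 with a standard error of 0.22, adjusted p = 1.8e-05). ORC1, the subunit that comes and goes with the cell cycle in human cells, lay at 4.31 to 4.73 (median 4.60) in the iPSCs, against 3.49 in KB10973 and 3.08 in KB10460 fibroblasts (2.43-fold, adjusted p = 1.4e-04). ORC2 had log2 values of 4.67 to 5.67 (median 4.96) in the iPSCs, against 4.19 in KB10973 and 4.13 in KB10460 fibroblasts (log2 fold change 0.94 with a standard error of 0.29, adjusted p = 0.036). Both were called, but ORC2 by a narrow margin. ORC4, with 6.79 to 7.63 (median 7.25) in the iPSCs, against 6.09 in KB10973 and 6.48 in KB10460 fibroblasts, was the only gene of this group lower in the KB10973 culture (log2 fold change 0.94, adjusted p = 0.016). ORC5 was at 6.56 to 7.13 (median 6.61) in the iPSCs, against 6.22 in KB10973 and 5.35 in KB10460 fibroblasts (log2 fold change 0.90, adjusted p = 0.014). CDC6 (probe set 203968_s_at), the ATPase that joins the complex to load the MCM ring, changed least, at 4.98, 4.84 and 5.18 in KB10973 colonies 1 to 3 and at 5.66, 4.86 and 5.32 in KB10460 colonies 1 to 3, against 4.34 in KB10973 and 4.15 in KB10460 fibroblasts. Its lowest colony was still 0.51 above the higher culture (log2 fold change 0.90 with a standard error of 0.21, adjusted p = 0.0092). The calls of ORC2, ORC5 and CDC6 were lost without the KB10460 fibroblasts, those of ORC2 and ORC4 without the KB10973 fibroblasts, and that of ORC2 also without KB10973 colony 3.

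The 6 subunits of the MCM helicase, the motor that unwinds DNA at the fork, were all called higher, with a median log2 fold change of 2.03. MCM5 (probe set 216237_s_at) had the largest difference and was at 7.94, 7.97 and 8.06 in KB10973 colonies 1 to 3 and at 8.06, 7.95 and 7.87 in KB10460 colonies 1 to 3, against 5.95 in KB10973 and 3.19 in KB10460 fibroblasts. The colonies lay within 0.19 of each other, while the cultures were 2.76 apart (log2 fold change 3.41 with a standard error of 0.54, adjusted p = 0.0011). MCM3 likewise had cultures 2.06 apart, with 7.22 to 8.15 (median 8.04) in the iPSCs, against 5.99 in KB10973 and 3.93 in KB10460 fibroblasts (7.72-fold, adjusted p = 0.0010). MCM6 was 4.13-fold higher, at 9.15 to 9.64 (median 9.46) in the iPSCs, against 8.23 in KB10973 and 6.52 in KB10460 fibroblasts (adjusted p = 0.0021). MCM7 was 4.04-fold higher, with a mean of 7.98 ± 0.15 (SD, n = 6) in the iPSCs, against 6.72 in KB10973 fibroblasts and 5.21 in KB10460 fibroblasts (adjusted p = 9.8e-04). In all 4 of these genes the KB10973 culture lay between the KB10460 culture and the colonies. MCM2 differed from these in that its fibroblast values hardly differed, with a mean of 6.13 ± 0.13 (SD, n = 6) in the iPSCs, against 4.45 in KB10973 fibroblasts and 4.39 in KB10460 fibroblasts. Its 3.28-fold difference had the smallest adjusted p of the 41 genes (log2 fold change 1.72 with a standard error of 0.10, adjusted p = 2.7e-06). MCM4 (probe set 212141_at) changed least, at 6.70, 6.62 and 6.63 in KB10973 colonies 1 to 3 and at 6.63, 6.70 and 6.87 in KB10460 colonies 1 to 3, against 5.90 in KB10973 and 5.50 in KB10460 fibroblasts. The gap between its lowest colony and the higher culture was 0.72 (log2 fold change 0.99 with a standard error of 0.11, adjusted p = 1.7e-04). No call of these 6 genes was lost when any 1 array was left out, but leaving out either fibroblast array moved the folds of MCM3, MCM5, MCM6 and MCM7 by over 1.5 times.

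The 6 genes of helicase activation were all called higher, with a median log2 fold change of 1.11. GINS1 to GINS4 encode the 4 subunits of GINS, which binds the MCM ring together with CDC45. GINS1 (probe set 206102_at) had the largest difference, at 8.45, 8.26 and 8.32 in KB10973 colonies 1 to 3 and at 8.52, 8.22 and 8.34 in KB10460 colonies 1 to 3, against 7.56 in KB10973 and 4.09 in KB10460 fibroblasts. Its colonies spanned 0.30, all above the KB10973 culture, whereas the KB10460 culture lay 4.13 below the lowest of them (log2 fold change 2.53 with a standard error of 0.68, adjusted p = 0.020). GINS2 had log2 values of 6.32 to 6.98 (median 6.74) in the iPSCs, against 5.72 in KB10973 and 4.10 in KB10460 fibroblasts (3.36-fold, adjusted p = 0.0048). CDC45, the partner of GINS in the active helicase, was at 4.96 to 5.73 (median 5.37) in the iPSCs, against 4.42 in KB10973 and 3.32 in KB10460 fibroblasts (2.78-fold, adjusted p = 0.0036). MCM10, which acts when the helicase starts to unwind, was 1.68-fold higher, at 3.68 to 3.85 (median 3.78) in the iPSCs, against 3.26 in KB10973 and 2.79 in KB10460 fibroblasts, close to background throughout. GINS3 was 1.60-fold higher, at 4.36 to 4.82 (median 4.75) in the iPSCs, against 4.13 in KB10973 and 3.80 in KB10460 fibroblasts. GINS4 (probe set 211767_at) changed least, at 5.55, 5.73 and 5.70 in KB10973 colonies 1 to 3 and at 6.08, 5.34 and 5.71 in KB10460 colonies 1 to 3, against 5.39 in KB10973 and 4.72 in KB10460 fibroblasts. KB10460 colony 2 fell just below the KB10973 culture, so the groups overlapped, and the call sat at the threshold (log2 fold change 0.63 with a standard error of 0.21, adjusted p = 0.048). With the donor as a block GINS4 was no longer called (adjusted p = 0.055), the only call lost in that fit. It was also lost when any 1 of 5 colonies (all but KB10460 colony 2) was left out, and without the KB10460 fibroblasts, which also ended the calls of MCM10 and GINS3. The GINS1 log2 fold change was 0.79 without the KB10460 and 4.26 without the KB10973 fibroblasts, and that of GINS2 was 0.94 and 2.56 in the same order, so both folds moved by over 1.5 times.

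Both genes of the kinase that phosphorylates the MCM ring and so triggers origin firing were called higher. DBF4 (probe set 204244_s_at), its regulatory subunit, was at 4.83, 4.65 and 4.66 in KB10973 colonies 1 to 3 and at 4.77, 4.30 and 4.46 in KB10460 colonies 1 to 3, against 3.79 in KB10973 and 2.92 in KB10460 fibroblasts. The catalytic subunit CDC7 (probe set 204510_at) was at 3.94, 4.21 and 4.42 in KB10973 colonies 1 to 3 and at 4.17, 4.47 and 4.19 in KB10460 colonies 1 to 3, against 3.70 in KB10973 and 3.43 in KB10460 fibroblasts. All colonies were above both cultures for both genes, with a 2.38-fold difference for DBF4 (log2 fold change 1.25 with a standard error of 0.22, adjusted p = 0.0019) and a 1.59-fold difference for CDC7 (log2 fold change 0.67 with a standard error of 0.14, adjusted p = 0.0068). Without the KB10460 fibroblasts CDC7 was not called.

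All 6 genes of the sliding clamp and its loader were called higher, with a median log2 fold change of 1.76. RFC4 (probe set 204023_at), a small subunit of replication factor C, which opens the clamp and sets it on DNA, was at 9.23, 9.16 and 9.24 in KB10973 colonies 1 to 3 and at 9.24, 9.22 and 9.16 in KB10460 colonies 1 to 3, against 6.78 in KB10973 and 4.62 in KB10460 fibroblasts. Its colonies were the most alike of all 41 genes (SD 0.04, n = 6), and the difference was 11.4-fold (log2 fold change 3.51 with a standard error of 0.42, adjusted p = 2.1e-04). PCNA (probe set 201202_at), the clamp itself, was at 9.30, 9.07 and 9.48 in KB10973 colonies 1 to 3 and at 9.42, 9.28 and 9.29 in KB10460 colonies 1 to 3, against 8.75 in KB10973 and 6.53 in KB10460 fibroblasts. The KB10973 fibroblasts came within 0.33 of the lowest colony, and the KB10460 fibroblasts were 2.54 below it (log2 fold change 1.67 with a standard error of 0.44, adjusted p = 0.019). RFC3 (probe set 204127_at) was at 6.77, 6.77 and 6.49 in KB10973 colonies 1 to 3 and at 6.47, 6.38 and 6.43 in KB10460 colonies 1 to 3, against 5.78 in KB10973 and 3.17 in KB10460 fibroblasts, again with 1 culture near the colonies and 1 far from them (log2 fold change 2.08 with a standard error of 0.52, adjusted p = 0.014). RFC5, with values of 6.69 to 7.53 (median 7.01) in the iPSCs, against 5.60 in KB10973 and 4.74 in KB10460 fibroblasts, was 3.62-fold higher (adjusted p = 4.3e-04). RFC1, the large subunit, was 2.24-fold higher, at 6.20 to 6.46 (median 6.37) in the iPSCs, against 5.30 in KB10973 and 5.04 in KB10460 fibroblasts (adjusted p = 3.6e-05). RFC2 (probe set 203696_s_at) changed least, at 5.14, 5.09 and 5.22 in KB10973 colonies 1 to 3 and at 5.38, 5.33 and 5.30 in KB10460 colonies 1 to 3, against 4.72 in KB10973 and 4.36 in KB10460 fibroblasts (log2 fold change 0.70 with a standard error of 0.12, adjusted p = 0.0015). Without the KB10460 fibroblasts the calls of PCNA and RFC2 were lost, and leaving out either fibroblast array moved the folds of PCNA, RFC3 and RFC4 by over 1.5 times.

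Of 7 polymerase and primase genes, 6 were called higher, with a median log2 fold change of 1.23 over the 7. PRIM1 (probe set 205053_at), the catalytic subunit of the primase that starts every new strand with a short RNA, had the largest difference of all 41 genes. It was at 8.32, 8.37 and 8.34 in KB10973 colonies 1 to 3 and at 8.49, 9.06 and 8.85 in KB10460 colonies 1 to 3, against 4.84 in KB10973 and 3.56 in KB10460 fibroblasts. The lowest colony exceeded the higher culture by 3.48, and the fitted difference was 20.7-fold (log2 fold change 4.37 with a standard error of 0.32, adjusted p = 9.5e-06). POLA1, the catalytic subunit of polymerase alpha, which extends those primers, was at 5.98 to 7.62 (median 6.25) in the iPSCs, against 4.68 in KB10973 and 3.42 in KB10460 fibroblasts (log2 fold change 2.47 with a standard error of 0.47, adjusted p = 0.0036). Its colonies were the least alike of the 41 genes (SD 0.66, n = 6), with KB10460 colony 1 at 7.62 and KB10460 colony 2 at 6.10. POLD1, the catalytic subunit of the lagging strand polymerase delta, was 5.26-fold higher, with 5.80 to 6.91 (median 6.60) in the iPSCs, against 4.18 in KB10973 and 4.06 in KB10460 fibroblasts (adjusted p = 1.1e-04). Its accessory subunit POLD2 was 2.35-fold higher, at 6.21 to 7.04 (median 6.54) in the iPSCs, against 5.78 in KB10973 and 4.90 in KB10460 fibroblasts (adjusted p = 0.0071). POLE, the catalytic subunit of the leading strand polymerase epsilon, was 1.90-fold higher, at 4.28 to 4.64 (median 4.42) in the iPSCs, against 3.77 in KB10973 and 3.25 in KB10460 fibroblasts (adjusted p = 8.2e-04). Its partner POLE2 was 1.78-fold higher, at 4.62 to 4.95 (median 4.81) in the iPSCs, against 3.72 in KB10973 and 4.19 in KB10460 fibroblasts (adjusted p = 0.0013), and was lower in the KB10973 than in the KB10460 culture. POLD3 (probe set 212836_at), another accessory subunit of polymerase delta, changed least and was not called, at 5.09, 4.88 and 5.49 in KB10973 colonies 1 to 3 and at 5.21, 4.96 and 4.91 in KB10460 colonies 1 to 3, against 4.69 in KB10973 and 4.37 in KB10460 fibroblasts. All its colonies were above both cultures, but the fold of 1.48 was under 1.5 (log2 fold change 0.56 with a standard error of 0.17, adjusted p = 0.031, 95% interval 0.19 to 0.94). POLD3 passed the threshold in 5 of 16 alternative settings, among them the fit without the KB10973 fibroblasts (log2 fold change 0.72, adjusted p = 0.035). POLA1 and POLD2 were not called without the KB10460 fibroblasts, and leaving out either fibroblast array moved the folds of POLA1 and PRIM1 by over 1.5 times.

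**Figure D2:**
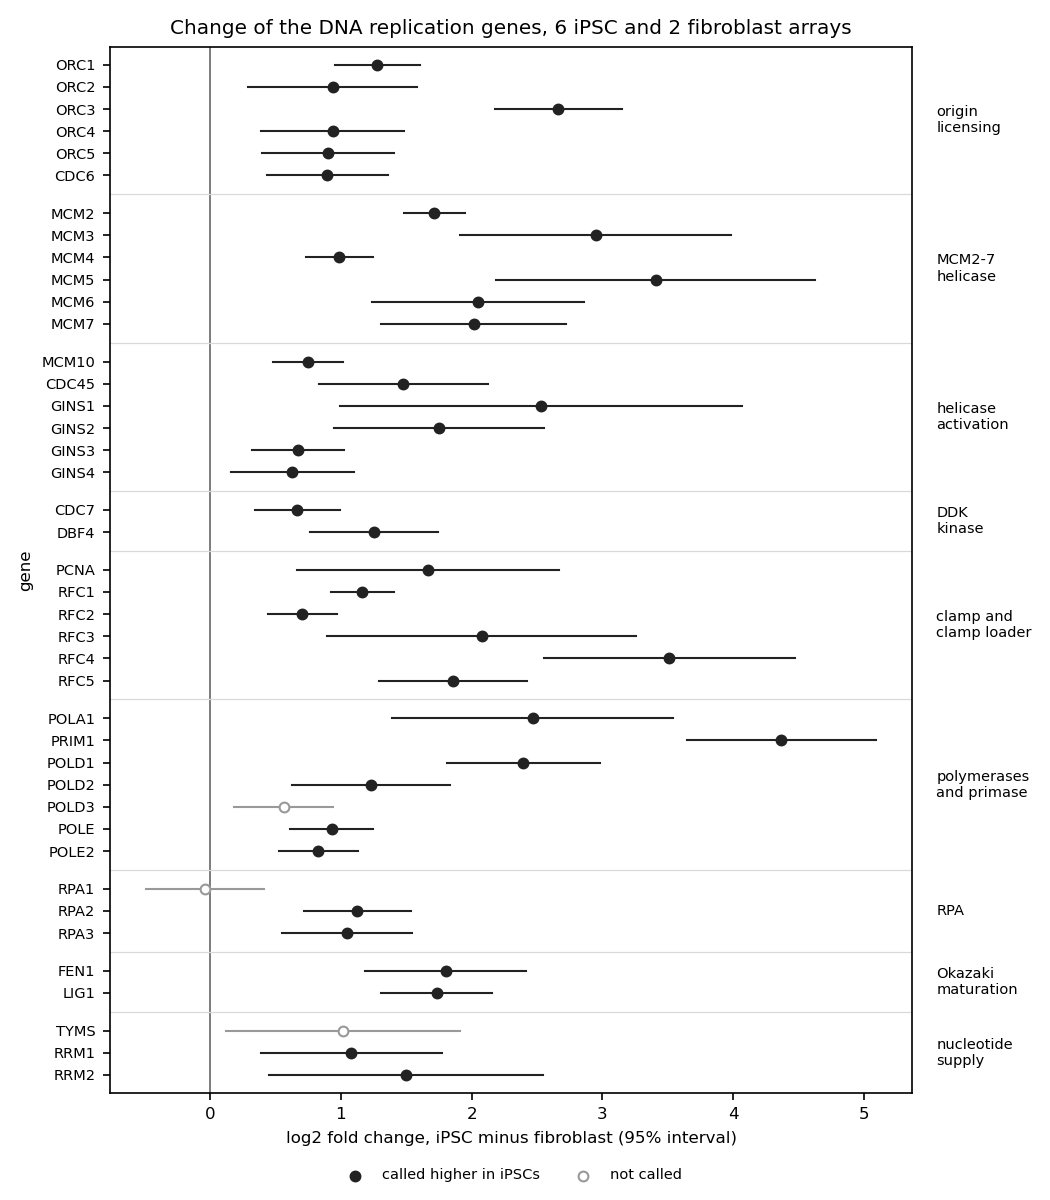
Fitted log2 fold change, iPSC minus fibroblast, of each of the 41 genes (point) with its 95% interval by limma (line), over 6 iPSC and 2 fibroblast arrays, grouped by role. Filled points are the 38 genes called higher, open points are POLD3, RPA1 and TYMS, and RPA1 is the only point left of 0.

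Replication protein A, which coats the single strands that the helicase exposes, had 2 of its 3 genes called higher. RPA2 (probe set 201756_at), the middle subunit, was at 5.26, 5.65 and 5.13 in KB10973 colonies 1 to 3 and at 5.53, 5.25 and 5.79 in KB10460 colonies 1 to 3, against 4.46 in KB10973 and 4.16 in KB10460 fibroblasts, all colonies above both cultures (log2 fold change 1.13 with a standard error of 0.18, adjusted p = 0.0012). RPA3, the small subunit, was 2.07-fold higher, at 5.94 to 6.48 (median 6.28) in the iPSCs, against 5.58 in KB10973 and 4.78 in KB10460 fibroblasts (adjusted p = 0.0057), a call that was lost without the KB10460 fibroblasts. RPA1 (probe set 201528_at), the large subunit with the main DNA binding domains, was at 7.45, 7.76 and 7.31 in KB10973 colonies 1 to 3 and at 8.04, 7.75 and 7.73 in KB10460 colonies 1 to 3, against 7.98 in KB10973 and 7.44 in KB10460 fibroblasts. Here the groups overlapped, with 1 colony below both cultures, 1 above both and the others between them, and the interval of the difference, -0.49 to 0.41, spanned 0 (log2 fold change -0.04 with a standard error of 0.20, adjusted p = 0.93). Its second probe set gave a log2 fold change of -0.04 as well. The sign of the RPA1 difference turned with median centring (0.01) and without KB10973 colony 1 (0.01), KB10973 colony 3 (0.04) or the KB10973 fibroblasts (0.23).

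Both genes of Okazaki fragment maturation, the joining of the short pieces made on the lagging strand, were called higher. FEN1 (probe set 204767_s_at), the nuclease that trims the flap in front of each piece, was at 7.67, 7.24 and 7.70 in KB10973 colonies 1 to 3 and at 7.51, 7.47 and 7.56 in KB10460 colonies 1 to 3, against 6.35 in KB10973 and 5.09 in KB10460 fibroblasts (log2 fold change 1.80 with a standard error of 0.27, adjusted p = 8.5e-04). LIG1 (probe set 202726_at), the ligase that seals the nick, was at 5.83, 6.21 and 5.88 in KB10973 colonies 1 to 3 and at 6.18, 5.59 and 5.69 in KB10460 colonies 1 to 3, against 4.38 in KB10973 and 3.95 in KB10460 fibroblasts (log2 fold change 1.73 with a standard error of 0.19, adjusted p = 1.1e-04). All colonies were above both cultures for both genes. Leaving out either fibroblast array moved the fold of FEN1, but not that of LIG1, by over 1.5 times.

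Of the 3 genes that supply deoxynucleotides, 2 were called higher. RRM2 (probe set 209773_s_at), the small subunit of ribonucleotide reductase, which turns ribonucleotides into deoxynucleotides, was at 9.71, 9.87 and 9.20 in KB10973 colonies 1 to 3 and at 9.13, 8.99 and 9.13 in KB10460 colonies 1 to 3, against 8.88 in KB10973 and 6.80 in KB10460 fibroblasts. The KB10973 fibroblasts were 0.11 below the lowest colony, and the fitted difference was 2.83-fold (standard error 0.46 on the log2 scale, adjusted p = 0.037). RRM1, the large subunit, lay at 7.68 to 8.09 (median 7.72) in the iPSCs, against 7.46 in KB10973 and 6.05 in KB10460 fibroblasts (log2 fold change 1.08 with a standard error of 0.30, adjusted p = 0.025). TYMS (probe set 202589_at), which makes the thymidine nucleotide of DNA, changed least and was not called, at 7.61, 7.24 and 7.99 in KB10973 colonies 1 to 3 and at 7.20, 7.48 and 7.98 in KB10460 colonies 1 to 3, against 7.41 in KB10973 and 5.72 in KB10460 fibroblasts. The KB10973 culture lay above KB10973 colony 2 and KB10460 colony 1, so the groups overlapped, and the interval of the difference was wide (log2 fold change 1.02 with a standard error of 0.39, adjusted p = 0.088, 95% interval 0.13 to 1.91). Without the KB10460 fibroblasts neither RRM1 nor RRM2 was called, RRM2 was also lost when any 1 of 5 colonies (all but KB10460 colony 2) was left out, and leaving out either fibroblast array moved the folds of both by over 1.5 times. With the KB10460 fibroblasts left out the TYMS log2 fold change was 0.17, and with those of KB10973 left out it was 1.86 and was called (adjusted p = 0.0020).

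For 16 of the genes more than 1 probe set was on the array. Of their 21 other probe sets, 10 were called higher, 0 lower and 11 were not called. Of these 11, 7 had a mean under 3.74, the lowest array median, and belong to ORC4, ORC5, MCM4, GINS3, RFC1 and TYMS. The other 4 belong to RFC5, RPA1, RRM1 and RRM2. RFC5 had the plainest disagreement, since its brightest probe set gave a log2 fold change of 1.86 and another gave -0.30 (adjusted p = 0.40). For MCM5 the second probe set was also called higher, with a smaller log2 fold change of 1.74.

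Between the fibroblast cultures of the 2 donors nearly all of these genes had the higher value in KB10973. With 1 array each there is no test. The KB10973 culture was above the KB10460 culture in 39 of the 41 genes, all but ORC4 and POLE2, and in 5907 of the 11963 genes. It was more than 1.5-fold above in 22 of the 41, against 7.51% of all genes, and more than 1.5-fold below in 0, against 5.31% of all genes. The median difference of the 41 was 0.80, a 1.74-fold difference, beside 0.00 over all genes. More than 2-fold higher in KB10973 were 16 of the 41, against 296 of the 11963 genes. GINS1 differed most (11.1-fold), followed by MCM5 (6.78-fold), RFC3 (6.12-fold), PCNA (4.65-fold) and RFC4 (4.47-fold), whose values were given above. The second probe sets of MCM5 (1.47-fold) and RFC3 (1.18-fold) had smaller differences between the cultures, that of RFC3 at values below the array median in both cultures. RRM2 was at 8.88 in KB10973 fibroblasts and 6.80 in KB10460 fibroblasts, a 4.22-fold difference. At the other end were MCM2, ORC2 and POLD1, whose cultures were 0.06, 0.06 and 0.12 apart. By role, the median difference was 1.68 for nucleotide supply, 1.61 for the MCM helicase, 1.51 for the clamp and its loader, 0.89 for helicase activation, 0.85 for Okazaki fragment maturation, 0.57 for the kinase of CDC7 and DBF4, 0.53 for replication protein A, 0.52 for the polymerases and primase and 0.30 for origin licensing. Of the 41 genes, 40 or 41 were above the array median in each iPSC array, against 35 in KB10973 fibroblasts and 30 in KB10460 fibroblasts, so the lowest values of the KB10460 culture are near background.

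Set against its own fibroblasts, each donor had most of these genes higher in its iPSCs. In KB10973 the mean of the 3 colonies was more than 1.5-fold above the culture in 30 of the 41 genes, against 15.2% of all genes, with a median log2 change of 0.90 (1.86-fold). In KB10460 it was so in 39 of the 41, against 17.9% of all genes, with a median change of 1.73 (3.32-fold). The 2 genes short of it in KB10460 were RPA1 and POLE2. The change was the larger in KB10460 for 39 of the 41 genes, all but POLD1 and POLE2, and for 5825 of the 11963 genes. The difference between the 2 changes of a gene equals its donor difference in the iPSCs minus that in the fibroblasts. The median iPSC difference over the 41 was 0.02, so the count largely restates the fibroblast difference given above. Since each donor has 1 fibroblast array, limma's test of the difference between these changes takes its spread from the colonies and assumes that a fibroblast array varies like one, so it does not measure the spread between fibroblast cultures. Under that assumption 9 genes were called with a smaller change in KB10973, against 2.02% of all genes. Called the other way were 0 of the 41 and 167 of the 11963 genes, a share too small for that 0 to say much. Of the 41, 25 had an unadjusted p under 0.05, as did 2073 of the 11963 genes. GINS1 changed by 0.78 in KB10973 and 4.27 in KB10460 (difference -3.49 with a standard error of 0.20, adjusted p = 2.6e-04), and MCM5 by 2.04 in KB10973 and 4.77 in KB10460 (difference -2.73 with a standard error of 0.17, adjusted p = 3.3e-04). RFC4 changed by 2.43 in KB10973 and 4.59 in KB10460, RFC3 by 0.89 in KB10973 and 3.26 in KB10460 and PCNA by 0.54 in KB10973 and 2.80 in KB10460. These 5 calls, with MCM6, were kept in all 11 alternative settings run for this test, and those of MCM7, GINS2 and PRIM1 were lost in 4, 8 and 5 of them. With all probe sets of a gene averaged, the difference shrank to -1.49 for MCM5 and -1.23 for RFC3. Their second probe sets alone were not called, with -0.25 for MCM5 (adjusted p = 0.75) and -0.09 for RFC3 (adjusted p = 0.92). Nor was that of MCM7 (-1.02, adjusted p = 0.12). Conversely, second probe sets of RFC2 (-0.99), FEN1 (-1.75), RRM1 (-1.08) and RRM2 (-1.90) were called, although the probe sets counted for these genes were not. MCM2 changed by 1.70 in KB10973 and 1.73 in KB10460 and ORC3 by 2.65 in KB10973 and 2.68 in KB10460, so that both donors changed by nearly the same amount.

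**Figure D3:**
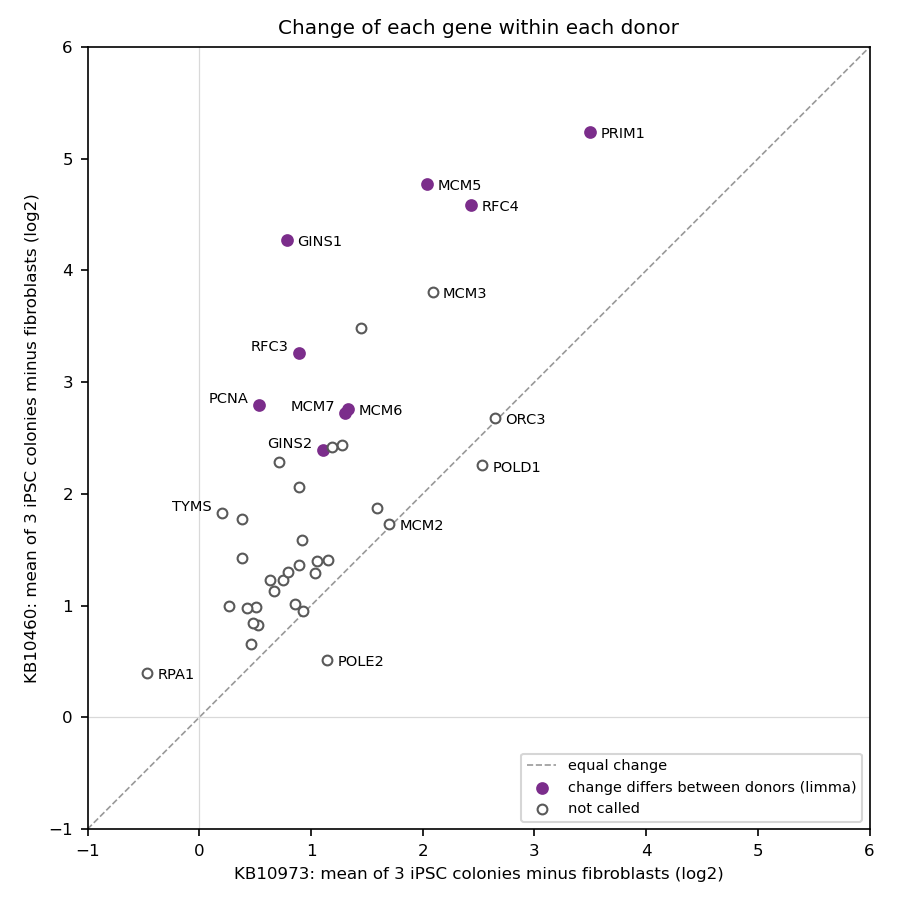
Log2 change of each of the 41 genes in KB10973 (horizontal axis) and in KB10460 (vertical axis), each as the mean of 3 iPSC colonies minus the donor's 1 fibroblast culture, with a dashed line for equal change. Filled points are the 9 genes called by limma for a difference of the change, with a fibroblast array assumed to vary like a colony, and all points but POLD1 and POLE2 lie above the line.

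Between the iPSCs of the donors hardly any gene was called, on this list or off it. Between 3 KB10973 and 3 KB10460 colonies 0 of the 41 genes were called by limma, against 0.142% of all genes. At that share a list of 41 is likely to hold no call, so the count says little about these genes. An unadjusted p under 0.05 was found for 10 of the 41, a larger share than the 1409 of the 11963 genes. The same count of 0 was found with array weights and with trended, robust variances. The median difference over the 41 was 0.02, with a range from -0.77 for POLA1 to 0.53 for POLD2. POLD2 averaged 6.84 in KB10973 iPSCs and 6.31 in KB10460 iPSCs (standard error of the difference 0.11, adjusted p = 0.17), and ORC3 7.43 in KB10973 iPSCs and 6.94 in KB10460 iPSCs (standard error 0.11, adjusted p = 0.18). PRIM1 averaged 8.34 in KB10973 iPSCs and 8.80 in KB10460 iPSCs (adjusted p = 0.34), and without KB10460 colony 1 it was called (difference -0.61, adjusted p = 0.049). GINS1, 11.1-fold apart in the fibroblasts, averaged 8.34 in KB10973 iPSCs and 8.36 in KB10460 iPSCs, a difference of -0.02 (standard error 0.10). Among the 34 genes with an iPSC mean over 5, the median SD over the 6 colonies was 0.25, beside 0.19 over all genes past the same level.

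Other genes of DNA replication were listed by function, with earlier results of these data known. Of 37 listed, 33 were measured with a symbol of their own, and 16 were called higher, 1 lower and 16 neither, with a median log2 fold change of 0.53. The 6 called genes with the largest differences were DSCC1 (log2 fold change 3.14), part of an alternative clamp loader, TOP2A (2.80), the topoisomerase that untangles sister chromatids and is also among the markers of dividing cells, GMNN (2.51), which blocks relicensing, WDHD1 (2.50), which ties polymerase alpha to the helicase, RNASEH2A (2.32), which removes RNA from DNA, and DUT (2.07), which keeps uracil out of DNA. POLD4, the smallest subunit of polymerase delta, was the gene called lower, at 4.69 to 4.89 (median 4.78) in the iPSCs, against 5.63 in KB10973 and 5.88 in KB10460 fibroblasts (log2 fold change -0.97 with a standard error of 0.09, adjusted p = 5.8e-05). In the fibroblasts this list was also higher in KB10973, by a median of 0.37, with 11 of 33 genes past 1.5-fold up and 0 down.

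Of 11 markers of dividing cells, 8 were called higher in the iPSCs, 0 lower, and 3 neither (MKI67, CCNE2 and E2F1). CCNE2, which encodes cyclin E2, had a fitted difference of the opposite sign, at 2.89 to 3.47 (median 3.18) in the iPSCs, against 5.95 in KB10973 and 3.10 in KB10460 fibroblasts (log2 fold change -1.36 with a standard error of 0.57, adjusted p = 0.11). The median level of the 11 was 7.09 to 7.55 in the iPSC arrays, against 4.75 in KB10973 and 4.39 in KB10460 fibroblasts. The mitotic kinase gene BUB1 was at 7.33 to 8.26 (median 7.77) in the iPSCs, against 3.77 in KB10973 and 3.17 in KB10460 fibroblasts, and cyclin B1 (CCNB1) at 8.24 to 8.83 (median 8.34) in the iPSCs, against 4.54 in KB10973 and 4.39 in KB10460 fibroblasts. Between the cultures the median difference of the 11 was 0.43, with 5 past 1.5-fold up and 0 down. CDK1, the kinase that drives mitosis, was at 7.16 in KB10973 fibroblasts and 5.28 in KB10460 fibroblasts, while AURKB (4.75 in KB10973 fibroblasts and 4.40 in KB10460 fibroblasts) and PLK1 (3.23 in KB10973 fibroblasts and 3.38 in KB10460 fibroblasts), both mitotic kinases, were close. Of 10 measured genes that act in cell cycle arrest, 2 were called higher and 4 lower in the iPSCs, against 15.2% and 11.5% of all genes. CDKN1C (log2 fold change 0.64) and CCNG1 (0.78) were higher, while CCNG2 (-0.64) and BTG1 (-2.07) were lower, as were CDKN1A and CDKN2A. CDKN1A, which encodes the p21 inhibitor, was at 5.83 to 6.98 (median 6.43) in the iPSCs, against 8.42 in KB10973 and 9.26 in KB10460 fibroblasts (log2 fold change -2.37 with a standard error of 0.32, adjusted p = 4.0e-04), and CDKN2A, the locus of p16, at 3.33 to 3.91 (median 3.57) in the iPSCs, against 6.34 in KB10973 and 6.80 in KB10460 fibroblasts (log2 fold change -2.96 with a standard error of 0.17, adjusted p = 2.1e-06). Both were lower in the KB10973 than in the KB10460 culture. Higher in the KB10973 culture were 3 of the 10 genes, CDKN1B (by 0.49), CDKN1C (by 0.01) and CCNG1 (by 0.37). The median difference of the 10 genes between the cultures was -0.05. The part of dividing cells in the difference of the replication genes, between cell types or between the cultures, was not tested.

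**Figure D4:**
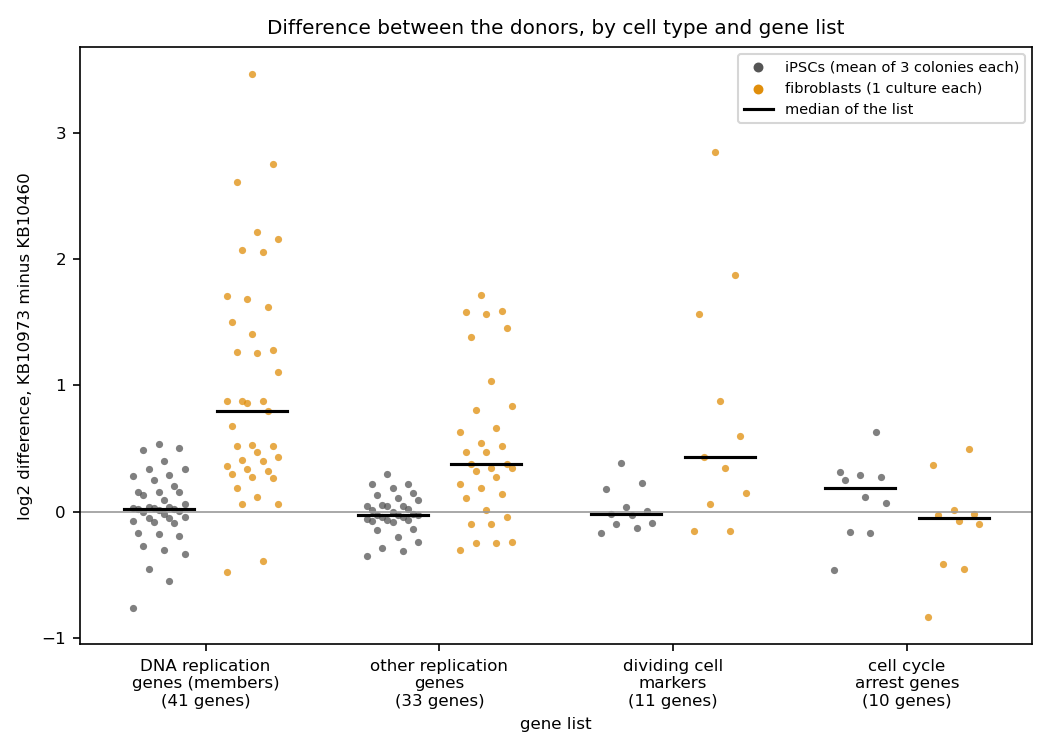
Log2 difference KB10973 minus KB10460 (vertical axis) of each gene in 4 lists, in iPSCs (grey points, means of 3 colonies each) and in fibroblasts (orange points, 1 culture each), with a bar at the median of the list. The 41 DNA replication genes had a median of 0.02 in the iPSCs and 0.80 in the fibroblasts, the 33 other replication genes 0.37 in the fibroblasts, the 11 dividing cell markers 0.43 and the 10 cell cycle arrest genes -0.05.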

How the data were processed

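RNA of 8 orangutan cultures was hybridized to human Affymetrix arrays, 1 array a culture. The authors deposited log2 values for 22277 probe sets, made with RMA, which corrects background, equalizes array distributions and summarizes probes, so a change in most transcripts would be removed. The RMA version was not given in the sources used. Precision is limited by the number of arrays. The annotation named 1 gene for 19070 probe sets, more than 1 for 1043 and no gene for 2164, and only the first kind was used by name.

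limma 3.58.1 in R 4.3.3 (lmFit, eBayes) was fitted two-sided to all probe sets for 3 comparisons: iPSC against fibroblast (8 arrays, no block), donors within iPSCs (6 arrays), and the difference of the change over 4 groups. Calls needed a fold above 1.5 and an adjusted p (Benjamini-Hochberg, over all probe sets) under 0.05. The steps were tested on simulated data in which every array varied like a colony, with no donor effect. That check does not cover a larger spread between fibroblast cultures. The members, the lists and the rule for named genes (every member, with all arrays for the largest and smallest change of each role and for the 5 largest fibroblast differences) were chosen with earlier results of these data known. The donor pairs the arrays, since fibroblasts and colonies came from the same animal, but the donor difference in fibroblasts and that in iPSCs had a correlation of 0.03 across 11963 genes and of 0.18 across the 41 members. Alternatives changed the block, moderation, weights, centring, filter, threshold, averaging and arrays. SNP arrays and differentiation assays were not analysed here.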

Additional observations from a re-analysis of the deposited data

Results flagged for a closer look

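In 9 genes the change from fibroblast to iPSC was called different between the donors by limma (change in KB10973 minus change in KB10460, both in log2). It was -3.49 for GINS1, -2.73 for MCM5, -2.37 for RFC3, -2.26 for PCNA, -2.16 for RFC4, -1.74 for PRIM1, -1.43 for MCM6, -1.41 for MCM7 and -1.28 for GINS2. The adjusted p ran from 2.6e-04 for GINS1 to 0.049 for GINS2. For each of the 9 the KB10973 fibroblasts were more than 2-fold above the KB10460 fibroblasts, and the iPSCs of the donors were not called different. Each donor has 1 fibroblast array, which the test assumes to vary like a colony, so the p-values do not cover the spread between fibroblast cultures, and the culture, the donor and the array cannot be told apart.

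In 3 of the 41 genes 1 colony stood apart from the other 5 by Dixon's test at the 95% level, which chance alone passes in about 5% of groups. A count of 3 of 41 is near that rate, so it says little about these genes. ORC5 was at 7.13 in KB10460 colony 1, against 6.56 to 6.64 in the other colonies. MCM3 was at 7.22 in KB10460 colony 2, against 7.85 to 8.15. MCM4 was at 6.87 in KB10460 colony 3, against 6.62 to 6.70. The colony differed from gene to gene, though each was from KB10460, and all 3 genes were called higher in the iPSCs without that colony.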

How the results depend on the processing

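The count of 38 genes called higher lay between 24 (without the KB10460 fibroblasts) and 39 (without KB10460 colony 2) when 1 array was left out, at 13 with the colonies averaged within a donor (2 samples against 2), and between 26 and 39 in the other settings. With the donor as a replicate block it was 37, and the block changed no other call than that of GINS4. No setting called a gene lower. POLD3 was gained in 5 settings and TYMS in 2, and without the KB10973 fibroblasts these 2 gains and the losses of ORC2 and ORC4 left the count at 38. The median log2 fold change had its lowest value when the KB10460 fibroblasts were left out (0.91) and its highest when the KB10973 fibroblasts were (1.74). It was 1.72 over the 30 genes with a mean of at least 5. That mean is over 8 arrays, 6 of them iPSC arrays, so the filter favours genes high in the iPSCs. The larger median under it is therefore partly built in. Of the 38 called genes, 9 kept the call in every setting run for them: ORC1, ORC3, MCM2, RFC1, RFC5, PRIM1, POLD1, RPA2 and LIG1. The RPA1 difference turned positive with median centring (0.0072) and ran from -0.30 to 0.23 when 1 array was left out. The cause was not tested. Between the donors' iPSCs the count was 0 in every setting but 1, without KB10460 colony 1 (1 gene, PRIM1), and 0 with the colony number, which the donors share only as a number, as a replicate block. The count of 9 genes called for a difference of the change lay between 6 and 11 when 1 colony was left out and between 7 and 13 otherwise. That comparison could not be fitted without a fibroblast array. The 22 genes past 1.5-fold between the cultures were 20 with the filter on low values and 16 at 2-fold. Depth does not apply to arrays, and genes near the array median have understated folds.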
